A study of Mus musculus with 9 samples.

Results

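Immediate early genes are genes that a cell switches on within minutes of a stimulus, from transcription factors it already holds and without new protein synthesis. Kinase cascades activate factors such as SRF and CREB at their promoters, and the messages are often short-lived because AU-rich stretches in their 3' untranslated regions recruit decay factors. In macrophages they are known to respond to microbial products, adhesion and growth factors. A group of 10 such genes, chosen by symbol, is described here: Fos, Jun, Junb, Egr1, Atf3, Ier2, Ier3, Dusp1, Zfp36 and Nr4a1. Each symbol was assigned the first row that bore it among the 54281 genes of the table. All 10 of 10 members passed the filter on low counts that left 15713 genes for testing.

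The study measured total RNA of lung macrophages from female wild-type mice aged 12 weeks, whose strain the labels do not name. Of the 3 groups, each of n = 3 separate mice, the first breathed air, the second was killed 24 h and the third 72 h after 3 h of ozone at 0.8 ppm, an oxidant air pollutant. Mice were killed with ketamine and xylazine, and the cells of every group were washed from the lung by lavage with massage, spun down and freed of red cells before RNA extraction. For the air mice the labels give no time of killing, so they are 1 control group for both time points. Levels are CPM, counts relative to library size after scaling by TMM, and changes are log2 fold changes from edgeR's quasi-likelihood test, in which a called gene had a Benjamini-Hochberg adjusted p under 0.05 over all genes tested.

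Library totals lay between 47095543 and 60248305 estimated counts, and the members had between 64 and 8399 counts in a library. Markers of alveolar macrophages, 15 genes such as Siglecf and Ear1, were all tested and summed to between 24176 and 38391 CPM. A pair of libraries, replicate 2 at 24 h and replicate 1 at 72 h, stood apart. Their summed serous cavity macrophage markers were 560.7 and 757 CPM against 4.21 to 7.23 CPM in the other 7, with 7 of 7 markers higher in both than in any other library and none at 0 counts throughout the other 7. Their summed B cell markers were 1755 and 1059 CPM against 158 to 200.1 CPM (8 of 9 markers higher in both), and 5.25% and 6.18% of their counts were mitochondrially encoded against 2.71% to 3.07%. Erythroid markers summed to 2909 and 2510 CPM against 12.2 to 855 CPM. The 855 CPM was in replicate 1 at 24 h, and the next highest of the 7 was 143 CPM in replicate 3 at 24 h. Monocyte and interstitial macrophage markers summed to 650 and 562 CPM against 158 to 217 CPM. Neutrophil sums and endothelium and fibroblast sums were higher in both too. So were 8 of 9 T cell markers, all but Cd2. Lck, for example, reached 117 and 13.0 CPM, and no other library exceeded 2.08 CPM. The T cell sum was higher only in replicate 2 at 24 h (829 CPM). That of replicate 1 at 72 h, 252 CPM with 190 CPM from Cd2, lay within the range of the other 7. Sums were lower in both for alveolar macrophages (24176 and 27988 against 30797 to 38391 CPM) and lung epithelium (609 and 544 against 687 to 854 CPM). The epithelium sums were mostly Krt19 (380 and 313 CPM), and the markers did not move together. Krt8 was 2.71 and 6.03 CPM, against 0.532 to 0.822 CPM in the air and other 24 h mice. Epcam was 104 and 74.5 CPM, against 98.5 to 133.6 CPM there. Of the 11 markers 0 were higher in both than in all other 7 libraries. Results below rest on all 9 libraries, and calls that were lost or gained without the 2 libraries that stood apart are given beside them. Fits without those 2 hold 2 mice at 24 h and 2 at 72 h. In RNA of a mixed sample, fewer cells of a type and less RNA per cell cannot be told apart.

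The members are compact genes. In GENCODE M21, on GRCm38, 9 of 10 have at most 4 exons in their main coding transcript, against 21.1% of 12804 protein-coding genes tested, and 7 of 10 span under 6000 bases, against 14.0%. Their median span is 3852.5 bases (23437.5 bases for the tested genes). The pentamer ATTTA, the core of AU-rich elements, occurs at least 3 times in the 3' untranslated region of 7 of 10 members, against 36.3% of 12663 tested genes with such a region, although the members' regions are shorter (median 764.5 against 1068 bases). By gene span, introns included, genes annotated on the opposite strand overlap Jun, Junb, Atf3, Dusp1 and Zfp36, and 2 more on the same strand overlap Dusp1. Overlap of exons was not examined and the use of strand in counting is unknown. Whether reads of these genes enter the levels of the 5 members is therefore uncertain. The longer element TTATTTATT occurs in 3 of 10 members, against 7.52%, at 2 positions in Dusp1 and 1 each in Fos and Zfp36. The site nearest the stop codon in each gene is shown because ZFP36, itself a member, is known to bind such elements and hasten decay; the capitals mark the element, read from the GENCODE transcripts on GRCm38.
Fos, chr12:85477103-85477131, plus strand: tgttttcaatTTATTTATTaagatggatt
Dusp1, chr17:26506159-26506187, minus strand: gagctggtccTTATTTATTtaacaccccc
Zfp36, chr7:28376951-28376979, minus strand: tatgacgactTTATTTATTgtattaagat

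RefSeq promoters of GRCm38.p6, each holding 250 bases before and 50 after a start site, were matched by symbol for 8 of 10 members, all but Egr1 and Ier2. They were searched on both strands for the CRE (TGACGTCA), the AP-1 site (TGANTCA), the TATA box (TATAAA) and, by name, the CArG box bound by SRF and the kappaB site. The CRE was found in Dusp1 only of the 8 (1.79% of 32851 promoters), the CArG box in Zfp36 only (1.63%), the TATA box in Fos and Junb (13.6%) and the kappaB site in Fos, Ier3 and Nr4a1 (8.46%). None of the 8 held the AP-1 site (7.81%). Relative to the start site, the TATAAA match began at -33 in Fos but at 1, the start itself, in Junb. The kappaB match in Nr4a1 began at -3 and ran across the start. The 250 bases before the start are printed for Jun and Zfp36, the members that passed a test below, and for Fos and Dusp1, which hold matches and the AU-rich element; capitals mark the CArG box in Zfp36, the kappaB site and then the TATA box in Fos, and the CRE in Dusp1. A match or its absence describes the letters of this window only.
Jun, chr4:95052223-95052472, minus strand: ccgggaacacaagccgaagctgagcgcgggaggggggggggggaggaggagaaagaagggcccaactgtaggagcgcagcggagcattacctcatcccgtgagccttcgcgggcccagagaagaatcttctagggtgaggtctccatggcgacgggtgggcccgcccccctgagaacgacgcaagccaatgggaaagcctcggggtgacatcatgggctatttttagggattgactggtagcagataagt
Zfp36, chr7:28379229-28379478, minus strand: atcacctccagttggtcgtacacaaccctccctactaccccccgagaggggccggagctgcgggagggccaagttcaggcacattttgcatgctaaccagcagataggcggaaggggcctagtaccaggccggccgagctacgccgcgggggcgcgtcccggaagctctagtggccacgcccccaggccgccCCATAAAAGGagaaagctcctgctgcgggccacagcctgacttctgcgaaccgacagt
Fos, chr12:85473640-85473889, plus strand: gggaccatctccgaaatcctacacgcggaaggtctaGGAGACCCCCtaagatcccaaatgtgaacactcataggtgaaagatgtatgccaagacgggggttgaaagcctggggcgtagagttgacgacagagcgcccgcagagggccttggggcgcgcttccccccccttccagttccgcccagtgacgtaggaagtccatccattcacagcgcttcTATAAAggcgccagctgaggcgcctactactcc
Dusp1, chr17:26508473-26508722, minus strand: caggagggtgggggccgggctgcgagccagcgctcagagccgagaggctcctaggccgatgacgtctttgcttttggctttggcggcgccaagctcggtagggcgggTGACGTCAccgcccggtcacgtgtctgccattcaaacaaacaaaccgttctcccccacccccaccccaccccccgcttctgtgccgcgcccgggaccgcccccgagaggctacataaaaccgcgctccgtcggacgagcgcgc

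At rest the genes differed widely in level. Per kilobase of annotated exon, Fos was the most abundant in air, at 53.6 ± 14.5 CPM per kb (SD, n = 3), with no library overlapping the next gene. Ier2 (23.5 ± 5.35 CPM per kb) and Zfp36 (20.6 ± 3.46) followed and overlapped each other. Below them lay Dusp1 (13.8 ± 2.61 CPM per kb), Atf3 (10.02 ± 2.49), Junb (7.05 ± 2.43) and Jun (5.80 ± 0.552), each overlapping its neighbour in this order. Nr4a1 (3.92 ± 0.532 CPM per kb) and Ier3 (2.79 ± 1.32) came next, and Egr1 was lowest at 0.768 ± 0.427 CPM per kb, below every air library of Ier3. Fos stayed highest and Egr1 lowest by mean at 24 h and 72 h.

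**Figure D1:**
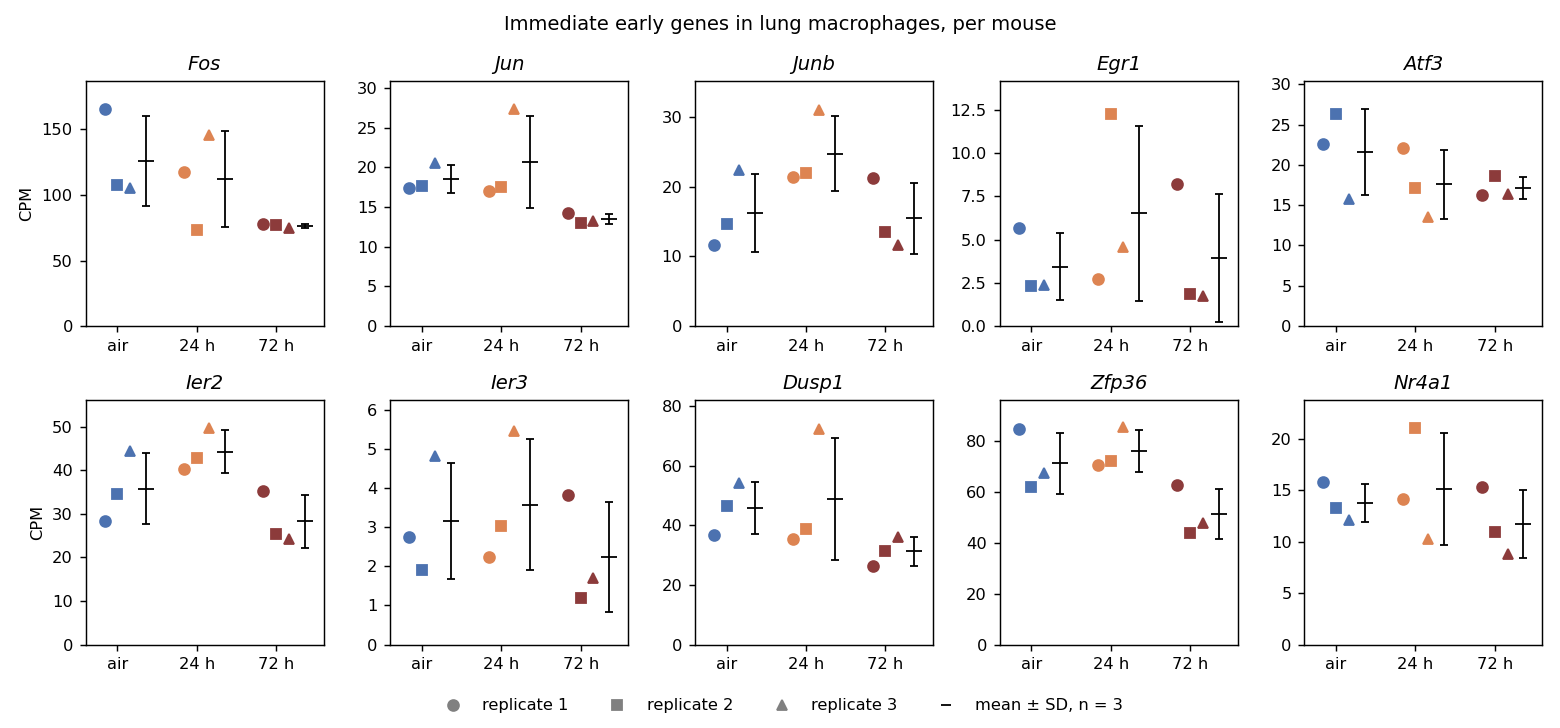
CPM of each immediate early gene (vertical axis, starting at 0) in each of 9 mice by group (horizontal axis); symbols give the replicate, and the black bars the mean ± SD of 3 mice. The 3 libraries at 72 h lie below all 3 at 24 h for Jun, Junb, Ier2 and Zfp36, and Egr1 reaches 12.3 and 8.22 CPM in replicate 2 at 24 h and replicate 1 at 72 h.

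In comparison with 24 h, the members lay lower at 72 h. All 10 of 10 had a negative log2 fold change, with a median of -0.63, where 53.1% of all genes tested were negative and the median of all genes was -0.03. Jun and Zfp36 fell, 8 were not called, and 18.2% of all genes were called (12.8% as lower), so that the count of members called was close to the background. In 4 of 10 members no library overlapped, all 4 lower at 72 h, against 22.7% of all genes. Markers of other cells also differed at 72 h, outside the pair of libraries that stood apart. Summed endothelium and fibroblast markers were 5.91 and 7.09 CPM in replicates 2 and 3 at 72 h and 0.492 to 1.71 CPM among the 5 other air and 24 h libraries, with 6 of 8 markers higher in both. Of 11 lung epithelium markers 7 were higher in both, with sums of 714 and 711 CPM against 687 to 854 CPM. Krt19 alone made 432 and 420 CPM of the sums in replicates 2 and 3 at 72 h. The part of these other cells in the result was not tested. An unadjusted p under 0.05 was found for 3 of 10 members and 33.3% of all genes. No member was called at 24 h against air, where 0.00636% of genes were called, or at 72 h against air, where 5.47% were. Without the pair of libraries that stood apart, Zfp36 and Ier2 were called at 72 h against 24 h, both lower, the members' median was -0.76 with 9 of 10 negative (15.1% of all genes called, 8.5% as lower), and again none at 24 h against air (0.0444%) or 72 h against air (7.12%). A joint test over the 3 groups called 0 members and 13.2% of all genes, with Zfp36 (adjusted p = 0.0845) and Jun (0.0889) the lowest in edgeR.

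The AP-1 factors are dimers of FOS and JUN family proteins. Jun, which encodes the c-Jun subunit (ENSMUSG00000052684.4, chromosome 4, 95049034 to 95052222, a gene of 1 exon), was 17.3, 17.7 and 20.5 CPM in air mice, 17.1, 17.5 and 27.3 CPM at 24 h, and 14.3, 13.0 and 13.2 CPM at 72 h. The 72 h libraries were the 3 lowest of the 9, and replicate 3 at 24 h was the highest. Its log2 fold change at 72 h against 24 h was -0.61 ± 0.17 (SE), with edgeR adjusted p = 0.0429, and against air -0.46 ± 0.17, adjusted p = 0.148. Without the 2 libraries that stood apart, the value against 24 h was -0.74 ± 0.21 (0.0539). With each library left out in turn, the call at 72 h against 24 h was kept without replicate 2 at 24 h (0.0370). It was lost without air replicate 1, 2 or 3 (0.0738, 0.0814 and 0.0774), without replicate 1 or 3 at 24 h (0.0604 and 0.0568), and without replicate 1, 2 or 3 at 72 h (0.0812, 0.155 and 0.136).

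Fos, whose product c-FOS pairs with JUN proteins (ENSMUSG00000021250.13, chromosome 12, 85473890 to 85477273), was 165, 107 and 105 CPM in air mice, 118, 73.4 and 146 CPM at 24 h, and 78.0, 76.9 and 74.9 CPM at 72 h. The 72 h mice agreed closely and lay below all air mice, while replicate 2 at 24 h was the lowest library of all. The log2 fold change at 72 h was -0.72 ± 0.26 against air (edgeR adjusted p = 0.142) and -0.55 ± 0.26 against 24 h (0.189). Without the pair of libraries that stood apart, the value against 24 h was -0.77 ± 0.24 (0.0853), and without replicate 2 at 24 h alone it was called (0.0451).

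Junb, whose product is the AP-1 subunit JUNB, was 11.6, 14.6 and 22.4 CPM in air mice, 21.4, 21.96 and 30.9 CPM at 24 h, and 21.2, 13.5 and 11.7 CPM at 72 h. The 72 h libraries lay below those at 24 h by a small margin, and replicate 1 at 72 h was near the 24 h mice. Its log2 fold change was 0.61 ± 0.31 at 24 h against air (edgeR adjusted p = 0.380) and -0.68 ± 0.31 at 72 h against 24 h (0.171), or -1.03 ± 0.34 (0.0977) without the 2 libraries. Atf3, a stress-induced bZIP repressor of inflammatory genes, showed another pattern, with 22.6, 26.4 and 15.8 CPM in air mice, 22.04, 17.1 and 13.5 CPM at 24 h, and 16.3, 18.7 and 16.4 CPM at 72 h. Its groups overlapped, and at 72 h it differed from 24 h by -0.04 ± 0.22, with a 95% interval of -0.53 to 0.46.

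Egr1 and Nr4a1 encode a zinc finger factor and an orphan nuclear receptor that is also known as an antigen receptor response gene of lymphocytes. Egr1 was 5.65, 2.30 and 2.38 CPM in air mice, 2.70, 12.3 and 4.60 CPM at 24 h, and 8.22, 1.86 and 1.75 CPM at 72 h. The 2 highest values were in the libraries that stood apart by markers of several other cell types, above the 1.75 to 5.65 CPM of the other 7. The part of these libraries in the result was not tested. Its log2 fold change at 24 h against air was 0.92 ± 0.82 with all libraries and 0.09 ± 0.44 without those 2. At 72 h against air it was 0.20 ± 0.81 and, without them, -0.90 ± 0.46 (edgeR adjusted p = 0.254), a change of sign. Nr4a1 was 15.8, 13.3 and 12.1 CPM in air mice, 14.2, 21.0 and 10.2 CPM at 24 h, and 15.3, 10.9 and 8.83 CPM at 72 h. Its highest library was also replicate 2 at 24 h, and replicate 1 was the highest at 72 h. Klf2, a quiescence factor of lymphocytes from a wider list of rapid genes, was 35.8 and 32.5 CPM in the 2 libraries against 3.91 to 6.87 CPM in the other 7, a gene singled out after its values were seen.

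**Figure D2:**
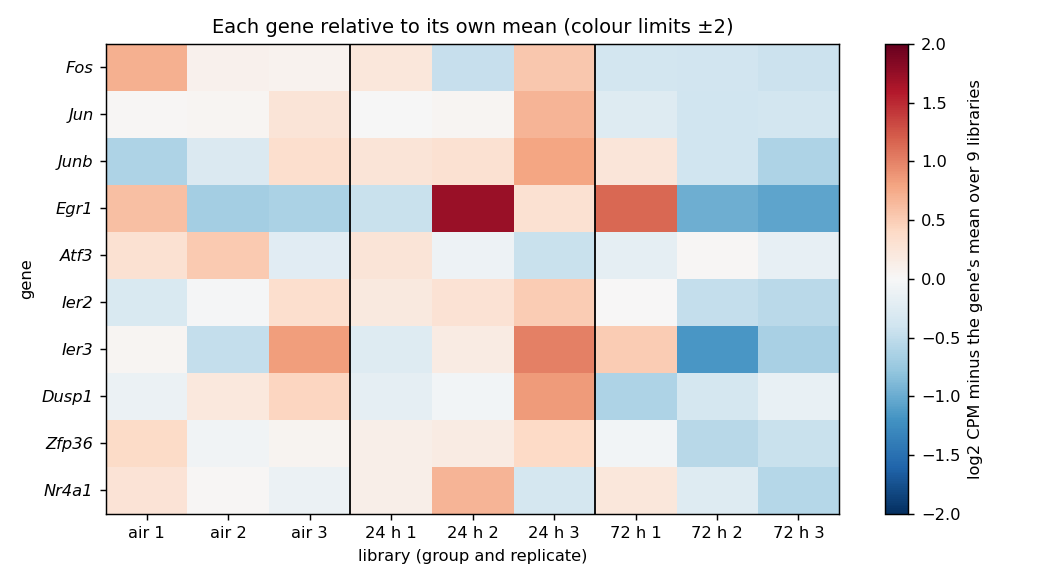
Log2 CPM of each gene (rows) in each library (columns, group and replicate) minus the gene's mean over 9 libraries, in colour with limits at ±2. Replicate 3 at 24 h is the highest library for 6 of 10 genes, and replicates 2 and 3 at 72 h hold the lowest value of 6 of 10.

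Among the feedback inhibitors, Zfp36 passed the test. It encodes tristetraprolin, which binds AU-rich elements and promotes decay of cytokine messages (ENSMUSG00000044786.6, chromosome 7, 28376784 to 28380253, 2 exons). Its levels were 84.8, 61.9 and 67.3 CPM in air mice, 70.4, 72.3 and 85.4 CPM at 24 h, and 62.7, 44.0 and 47.6 CPM at 72 h. All 72 h libraries lay below all 24 h libraries, and replicate 1 at 72 h reached into the air group. The log2 fold change at 72 h was -0.56 ± 0.16 against 24 h (edgeR adjusted p = 0.0447) and -0.47 ± 0.16 against air (0.117). Without the 2 libraries these were -0.74 ± 0.16 (0.0279) and -0.62 ± 0.15 (0.0514), and the joint test called the gene (0.0479, with 10.8% of all genes called). With 1 library left out, the call against 24 h was kept without air replicate 1 (0.0408) or replicate 1 at 72 h (0.0298). It was lost without air replicate 2 or 3 (0.0613 and 0.0810), replicate 1, 2 or 3 at 24 h (0.0963, 0.0749 and 0.137), or replicate 2 or 3 at 72 h (0.161 and 0.145).

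Dusp1, a phosphatase that switches off p38 and JNK kinases, was 36.9, 46.4 and 54.1 CPM in air mice, 35.3, 38.7 and 72.5 CPM at 24 h, and 26.2, 31.4 and 36.1 CPM at 72 h. Its 72 h libraries lay below those in air, and replicate 3 at 24 h stood well above the rest of its group. The log2 fold change was -0.64 ± 0.29 at 72 h against 24 h (edgeR adjusted p = 0.171) and -0.55 ± 0.29 against air (0.277). Ier3, a short-lived stress protein that affects survival and NF-kB signalling, was 2.76, 1.91 and 4.81 CPM in air mice, 2.24, 3.02 and 5.46 CPM at 24 h, and 3.82, 1.18 and 1.69 CPM at 72 h. These groups overlapped throughout, at -0.68 ± 0.54 for 72 h against 24 h (0.430) and -1.40 ± 0.57 (0.139) without the 2 libraries.

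Ier2, a nuclear protein first found as a growth factor response gene, was 28.3, 34.7 and 44.5 CPM in air mice, 40.3, 42.8 and 49.8 CPM at 24 h, and 35.3, 25.3 and 24.2 CPM at 72 h. The 72 h and 24 h mice did not overlap. Its log2 fold change was -0.65 ± 0.20 with edgeR adjusted p = 0.0560, just outside the threshold, and -0.84 ± 0.21 (0.0429) without the 2 libraries. Leaving out 1 library brought the call in 2 of 9 fits, without air replicate 3 (0.0498) and without replicate 1 at 72 h (0.0360).

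**Figure D3:**
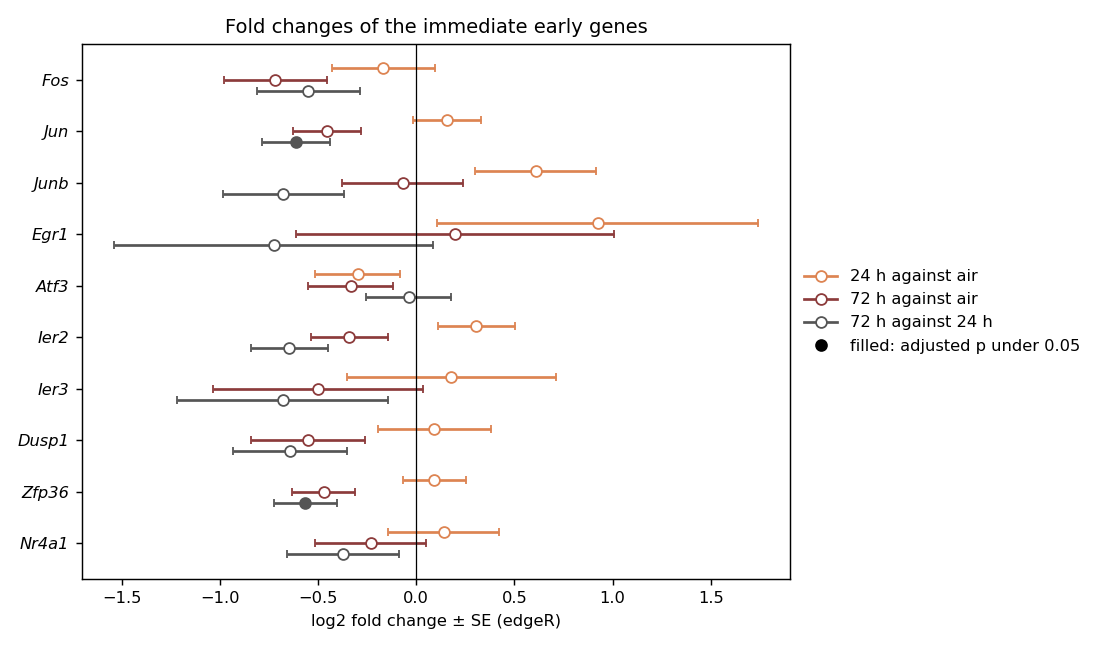
Log2 fold change ± SE (horizontal axis) of each gene (vertical axis) in 3 comparisons from edgeR; filled points have an adjusted p under 0.05. The points for 72 h against 24 h all lie below 0, and those of Jun (-0.61) and Zfp36 (-0.56) are filled.

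In the mice killed at 24 h, 8 of 10 members lay above air in log2 fold change and 2 below 0 (47.5% of all genes below 0). The members' median was 0.15 (0.01 over all genes), and none was called or lay clear of the air libraries, as 19.4% of all genes did. No member had an unadjusted p under 0.05, which 14.7% of all genes had, and DESeq2 and limma voom also called 0 members. Without replicate 3 at 24 h, 6 of 10 members were negative and the median was -0.06. The design bounds some members closely and others hardly. The 95% interval was -0.28 to 0.46 for Zfp36 and -0.24 to 0.55 for Jun, but -0.99 to 2.84 for Egr1. By 72 h, 9 of 10 were below air (51% of all genes), with a median of -0.40 (-0.01 over all genes), 3 had an unadjusted p under 0.05 (25.3% of all genes), and 3 of 10, Fos, Jun and Dusp1, lay below every air library (22.1%). The 3 comparisons share libraries, so their values for a gene are not independent.

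Over all 9 libraries, with the 2 that stood apart included, the mice of a group also differed more than for many genes. The biological coefficient of variation, edgeR's measure of spread between mice beyond counting noise, had a median of 0.239 over the members and 0.181 over all genes tested. It ran from 0.148 in Zfp36 to 0.676 in Egr1, and 8 of 10 members were above the median of all genes. Relative to the value edgeR fits for genes of the same level, 6 of 10 members were above it (14.5% of all genes): Dusp1 had 0.251 against 0.145, and Fos 0.226 against 0.123. From the lowest to the highest of the 9 libraries, the members differed by between 1.94-fold in Zfp36 and 7.01-fold in Egr1. Egr1 was 12.3 and 8.22 CPM in the 2 libraries that stood apart and 1.75 to 5.65 CPM in the other 7. The part of these 2 libraries in the members' spread was not tested.

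**Figure D4:**
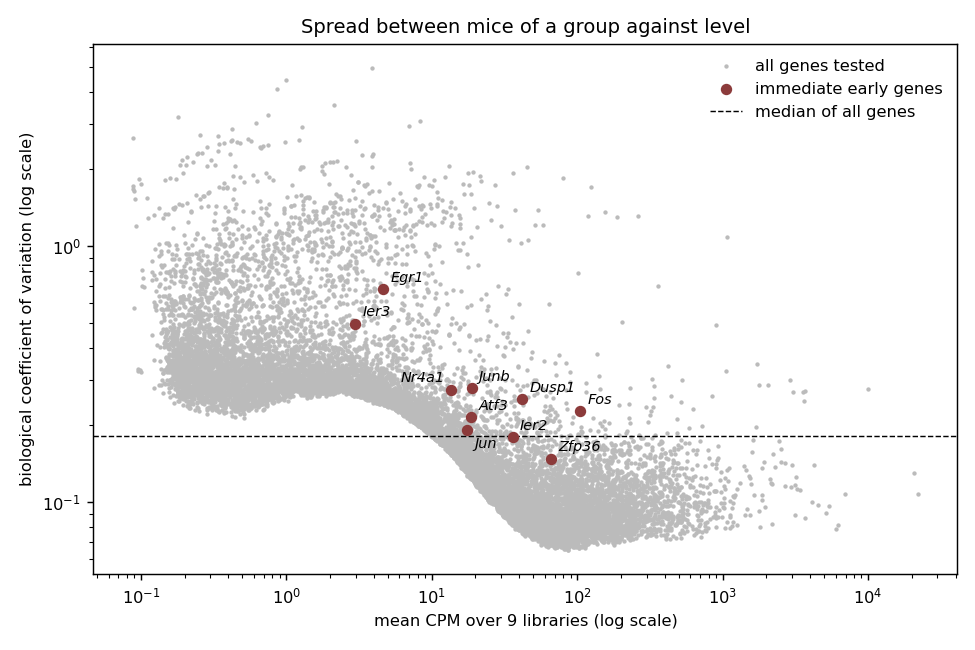
Biological coefficient of variation (vertical axis, log scale) against mean CPM over 9 libraries (horizontal axis, log scale) for all genes tested (grey) and the 10 immediate early genes (red); the dashed line is the median of all genes, 0.181. Egr1 (0.676) and Ier3 (0.498) stand highest among the 10, and Ier2 (0.180) and Zfp36 (0.148) lie below the line.

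Replicate 3 at 24 h carried the highest levels of most members. It was highest of the 9 libraries for Jun, Junb, Ier2, Ier3, Dusp1 and Zfp36, and lowest for Atf3. Heat shock genes, which encode chaperones and their partners, were highest there too, and 7 of 12 had their maximum in it. Their sum was 6466 CPM, of which Hspa8 made 3687.5 CPM and Hsp90ab1 1689 CPM. The sum was 5315 and 5768 CPM in the other 24 h mice, 4434 to 5102 CPM in the air mice and 3625 to 4592 CPM in those of 72 h. The stress-inducible chaperone gene Hspa1b was 11.2 CPM in that library and 1.48 to 6.40 CPM in the others. Its summed T cell markers were 256 CPM with 225 to 255 CPM among the 6 further libraries that did not stand apart. Cd2 alone made 250.9 CPM of that sum, and the other T cell markers, such as Cd3e and Lck, lay within the range of the 6. Its summed monocyte and interstitial macrophage markers were 158 CPM against 169.6 to 217 CPM. Summed markers of serous cavity macrophages (4.70 CPM) and B cells (159 CPM) were within the range of the 6. The part of what moved with this library was not tested. Without it, the median of the members at 72 h against 24 h was -0.40 with 10 of 10 negative.

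Heat shock genes also lay lower at 72 h than at 24 h. Of the 12, 6 fell and 0 rose (12.8% of all genes fell), the median log2 fold change was -0.63, and 11 of 12 were negative (53.1% of all genes). Hsp90aa1, an inducible chaperone of kinases and receptors, fell by 0.77 ± 0.08, and Hspd1, the mitochondrial chaperonin, by 0.61 ± 0.07 (edgeR adjusted p = 0.00366 and 0.00374); Hspe1 and Hsp90ab1 fell by 0.68 ± 0.10 and 0.53 ± 0.09. Hspa8, the most abundant of the list, was 2618 ± 327 CPM in air mice, 3129 ± 518 CPM at 24 h and 2282 ± 325 CPM at 72 h, not called. Against air Hspd1 fell by 0.35 ± 0.07 at 72 h (0.0294), and at 24 h all 12 were positive, 8 had an unadjusted p under 0.05 (14.7% of all genes) and 0 were called. Without the 2 libraries 5 fell and 1 rose at 72 h against 24 h (15.1% of all genes called, 8.5% as lower): Dnajb1 was no longer called and Hspb1 was, as it was against air.

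Called relatives of the members did not share 1 direction. Of 13 other AP-1 and related bZIP factors tested at 72 h against 24 h, 2 fell, 1 rose and 10 were not called, with a median of -0.10. Over all genes tested 18.2% were called, 12.8% as lower, so the number called here was close to the background. Atf4, the effector of the integrated stress response, fell by 0.37 ± 0.05 and the dendritic cell factor Batf3 by 0.71 ± 0.17, while Atf7 rose by 0.25 ± 0.07 (edgeR adjusted p = 0.00609, 0.0239 and 0.0425). Atf4 also fell against air, by 0.50 ± 0.05 (0.00480). Fosl2, the most abundant of them by CPM, was 282 ± 26.8, 259 ± 40.001 and 304 ± 53.4 CPM in air mice, at 24 h and at 72 h, not called. Of 11 other EGR, NR4A, KLF and related factors, 1 fell (12.8% of all genes), Cebpd (-0.63 ± 0.18, edgeR adjusted p = 0.0460), and the median was -0.18. Klf6 and Klf10, the most abundant, were 281 ± 35.5 and 199 ± 18.8 CPM at 24 h and 270.3 ± 38.9 and 208 ± 15.8 CPM at 72 h. Without the 2 libraries Atf7 (0.0841) and Cebpd (0.117) were no longer called at 72 h against 24 h, and the nuclear receptor gene Nr4a3 rose by 1.23 ± 0.26 (0.0319). Against air, Nr4a3 then rose by 1.20 ± 0.23 (0.0367) and Klf2 fell by 0.66 ± 0.16 (0.0459).

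Of 24 other rapidly induced genes, 1 rose and 23 were not called at 72 h against 24 h (18.2% of all genes called), with a median of -0.09. Ccn1, a matricellular protein gene, was at 0.340, 0.209 and 0.274 CPM at 24 h and at 0.398, 1.14 and 1.06 CPM at 72 h (1.65 ± 0.47, edgeR adjusted p = 0.0416). Against air, Ccn1 rose by 2.08 ± 0.47 and Rhob, a small GTPase, fell by 0.66 ± 0.13 (0.0432 and 0.0335); without the 2 libraries Rhob was not called (0.0511) and Gem, a small GTPase gene, was (1.71 ± 0.34, adjusted p = 0.0267). Mcl1 and Btg1, the most abundant, were not called, at 737 ± 61.7 and 369.6 ± 19.97 CPM at 24 h and 736 ± 128 and 319.9 ± 34.6 CPM at 72 h. Of 10 other dual-specificity phosphatases, Dusp7 fell by 0.30 ± 0.09 and Dusp8 rose by 1.62 ± 0.42 at 72 h against 24 h (edgeR adjusted p = 0.0451 and 0.0306), where 18.2% of all genes were called. Dusp8 had levels of 0.0834 to 0.148 CPM at 24 h and 0.299 to 0.469 CPM at 72 h. Without the 2 libraries Dusp8 was not called against 24 h (0.0580) and was against air (1.67 ± 0.42, adjusted p = 0.0499). Dusp3 and Dusp5, the most abundant, were 163 ± 40.9 and 58.1 ± 8.42 CPM at 24 h and 175 ± 10.8 and 58.5 ± 3.62 CPM at 72 h, and were not called.

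Upstream of the members, 0 of 27 kinases and transcription factors were called at 24 h against air, 72 h against air or 72 h against 24 h, where 0.00636%, 5.47% and 18.2% of all genes were, with a median of -0.03 at 72 h against 24 h. Mapk3, which encodes the kinase ERK1, was 494 ± 20.8, 465 ± 32.3 and 402 ± 28.6 CPM in air mice, at 24 h and at 72 h, and Rps6ka3, a kinase downstream of it, 348 ± 30.8, 304 ± 43.4 and 355 ± 35.2 CPM. Without the 2 libraries 1 of the 27, the SRF cofactor gene Mrtfb, rose at 72 h against 24 h (0.33 ± 0.09, edgeR adjusted p = 0.0440), where 15.1% of all genes were called. Of 8 genes of the ZFP36 family and mRNA decay, Elavl1, whose product stabilises AU-rich messages, fell by 0.31 ± 0.05 at 72 h against 24 h, and the exonuclease gene Xrn1 rose by 0.29 ± 0.07 (edgeR adjusted p = 0.00789 and 0.0289, with 18.2% of all genes called). Zfp36l2, a paralogue of Zfp36, was 520.3 ± 36.8 CPM at 24 h and 488 ± 52.5 CPM at 72 h, and Cnot1, the deadenylase scaffold, 219 ± 15.3 and 249.9 ± 2.00 CPM, neither called. Elavl1 fell against air too, by 0.21 ± 0.05 (0.0471), a call lost without the 2 libraries (0.112).

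Known targets of ZFP36-driven decay formed a further list. Of 12 tested, 1 rose and 11 were not called at 72 h against 24 h (18.2% of all genes called), with a median of -0.38 and 9 negative (53.1% of all genes). The gene that rose, Ptgs2, encodes the inducible cyclooxygenase, and went from 0.140, 0.355 and 0.0632 CPM at 24 h to 0.498, 0.791 and 0.714 CPM at 72 h (1.83 ± 0.52, edgeR adjusted p = 0.0429). It also rose against air, by 2.71 ± 0.55 (0.0331). The cytokine gene Il1a and the protease gene Plau, the most abundant of the list, were 20.1 ± 8.03 and 25.8 ± 5.42 CPM at 24 h and 33.2 ± 6.90 and 19.7 ± 5.72 CPM at 72 h, neither called.

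**Figure D5:**
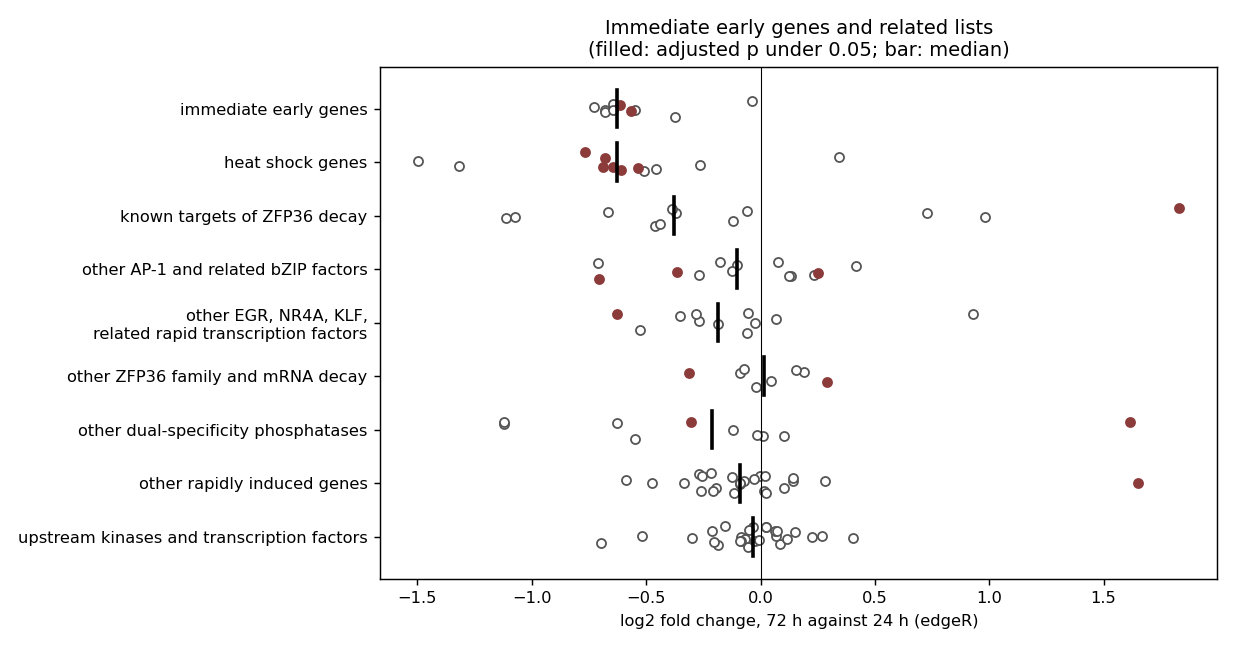
Log2 fold change at 72 h against 24 h (horizontal axis, edgeR) of each tested gene in the immediate early group and 8 further lists (vertical axis); filled points have an adjusted p under 0.05 and bars are medians. The medians are -0.63 for the immediate early genes, -0.63 for heat shock genes and between -0.38 and 0.01 for the other 7 lists.

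The genes whose pattern over the 9 libraries was most like the mean pattern of the members were sought among 9379 genes that averaged at least 5 CPM, by the root mean square difference of centred log2 CPM. Among the 5 nearest were Irf2bp1 (0.126), Irf2bpl (0.129), Pex6 (0.140) and Srebf2 (0.146). Irf2bp1 was 13.2 ± 1.47, 14.9 ± 1.83 and 10.6 ± 1.09 CPM in air mice, at 24 h and at 72 h, and Srebf2, the regulator of cholesterol synthesis, 139 ± 16.5, 173 ± 2.03 and 121 ± 15.0 CPM. By the same measure Zfp36 (0.114) and Ier2 (0.175) were the members nearest to the mean pattern, and Egr1 (0.763) and Atf3 (0.458) the farthest. Each member is part of that mean, so these values are not on a par with those of the other genes.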

How the data were processed

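The authors deposited estimated counts for each gene, with no scaling to library size. Per the submitters' processing notes, Trimmomatic 0.39, FastQC, Salmon, DESeq2 and GRCm38.p6 were used; annotation release, options and strand setting: not given in the sources used here. Per the labels' protocols the kit was stranded and prepared from total RNA.

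Rounded counts were analysed in R 4.3.3. After filterByExpr of edgeR 4.0.16, 15713 genes remained; TMM scaling and 1 robust quasi-likelihood fit over all 9 libraries followed, with Benjamini-Hochberg adjustment. Each SE was taken as |log2 fold change| over the root of the F statistic. Of 54281 gene identifiers, 54107 had a symbol; coordinates are those of GENCODE M21. Libraries are separate mice, and none was a copy of another. For single values, 3 against 3 mice allow no exact permutation p below 0.1 (two-sided). The procedure was tested on data simulated at the fitted trend of spread, with no library standing apart, a setting unlike these data.

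The members, lists and tests were chosen with earlier results of these data known. Named genes are all members and, from each list and comparison, up to 4 called genes of smallest p and the 2 most abundant, with the 5 genes of most similar pattern, of which 1 is not reported here. Alternatives were other scalings and filters, a replicate block, DESeq2 1.42.0, voom of limma 3.58.1, only the 6 libraries compared, and each library left out; 2 fits without libraries that stood apart or high were added after the data were seen.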

Additional observations from a re-analysis of the deposited data

How the results depend on the processing

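At 72 h against 24 h the number of members called, 2 in the report, was 0 with DESeq2 size factors, with upper quartile scaling, without a filter and with only the 6 libraries compared. It was 1 with the filter of 1 CPM in 3 libraries, and 3 with DESeq2 (Jun, Zfp36 and Ier2). It was 2 by limma voom (Zfp36 and Ier2) and ranged from 0 to 2 with 1 library left out. At 72 h against air, 0 in the report, it was 2 with DESeq2 (Fos and Zfp36), and 1, Jun, with only the 6 libraries compared. In the joint test it was 1 without the 2 libraries with other cell markers and 0 to 1 with 1 library left out. At 24 h against air it was 0 in every alternative that kept more than 1 mouse per group. The fit without the 3 libraries (replicates 2 and 3 at 24 h and replicate 1 at 72 h) left 1 mouse at 24 h, so only its fold changes are given.

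With the replicate number as a block 1 member, Zfp36, was called at 72 h against 24 h, and Jun was at adjusted p = 0.0575. The 9 same-numbered pairs of libraries had correlations of their deviations from -0.61 to 0.475, of which 2 were over 0.1. Of 9 libraries, 2 correlated best with their own number. The 2 libraries that stood apart, which differ in number, correlated at 0.73 with each other. Their shared difference enters these values, which therefore cannot tell whether the numbers mark a pairing. Over all genes, 2855 were called at 72 h against 24 h, 1474 with the block, 1696 without a filter and 340 to 2499 with 1 library left out; at 72 h against air 860 were called, 1890 by DESeq2, 299 with upper quartile scaling, 35 with the block and 7 to 1625 with 1 library left out; at 24 h against air 1 was called, and 580 by DESeq2.

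Signs changed in values that were not called. At 72 h against 24 h Atf3 was 0.022 with upper quartile scaling, 0.0019 with the filter of 1 CPM and 0.00047 without the 2 libraries, and with 1 library left out it ranged from -0.18 to 0.17 and Egr1 from -1.85 to 0.13. At 72 h against air Egr1 was -0.045 by limma voom, -0.90 without the 2 and -0.91 without the 3 libraries, and with 1 left out it ranged from -0.93 to 0.73 and Junb from -0.37 to 0.24. At 24 h against air, without the 2 libraries Fos was 0.064 and Nr4a1 -0.17. Without the 3, where replicate 1 was the only 24 h mouse, Jun was -0.12, Egr1 -0.34, Atf3 0.032, Ier3 -0.49, Dusp1 -0.37 and Zfp36 -0.016. With 1 library left out, the ranges at 24 h against air were -0.41 to 0.073 for Fos, -0.11 to 0.27 for Jun and -0.28 to 0.61 for Ier3. They were -0.32 to 0.28 for Dusp1, -0.011 to 0.23 for Zfp36 and -0.17 to 0.34 for Nr4a1. The cause of these changes was not tested.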
